A study of Mus musculus with 34 samples.

Results

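Bile acid synthesis in the liver was followed through 10 genes: the enzymes Cyp7a1, Cyp8b1, Cyp27a1, Cyp7b1, Cyp39a1, Hsd3b7, Akr1d1 and Baat, and the nuclear receptors Nr1h4 (FXR) and Nr0b2 (SHP). The genes were taken by name: each array probe that was not a control and carried a listed symbol was a member. This gave 10 probes for 10 genes, out of 15906 genes that could be tested. Each probe was 60 bases long and was well above background on all 34 arrays, and none was saturated. In the mm9 build the Cyp7a1 probe lies at chr4:6193456-6193515 on the minus strand, the Cyp8b1 probe at chr9:121824595-121824654 on the minus strand, and the Cyp39a1 probe at chr17:43887735-43887794 on the plus strand. The probe of Hsd3b7 lies at chr7:134947251-134947310 on the plus strand and that of Nr1h4 at chr10:88917222-88917281 on the minus strand. Whether the probes fall in coding exons or UTRs was not analysed here.

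Bile acids are made from cholesterol in hepatocytes. In the classical route Cyp7a1 adds the first hydroxyl group, Hsd3b7 and Akr1d1 remodel the steroid rings, and Cyp8b1 adds the hydroxyl group that directs the product to cholic acid. In the alternative route Cyp27a1 hydroxylates the side chain first and Cyp7b1 or Cyp39a1 then act on oxysterols, and Baat joins the finished acid to taurine or glycine. Nr1h4 is the receptor that senses bile acids. It induces Nr0b2, a repressor of Cyp7a1 and Cyp8b1, so that the pathway is under feedback control.

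The samples were livers of 34 male C57Bl/6J mice aged 14 weeks, with 1 mouse to an array, all gavaged daily for 10 days and killed at ZT14 (zeitgeber time). Mice received fenofibrate, a drug that activates the nuclear receptor PPARα, at 100 mg/kg/day, or its vehicle, 3% gum arabic in water. They belonged to 4 lines: wild type (WT), a whole-body Ppara knockout (KO), a liver Ppara knockout (LKO) and the control line of the latter, labelled liver WT (LWT). Vehicle groups held 4 WT, 3 KO, 4 LWT and 4 LKO mice, and fenofibrate groups 4 WT, 5 KO, 5 LWT and 5 LKO mice. The means by which Ppara was deleted in liver and the part of the gene removed are not given in the sources used here. Levels are log2 signals from which the array's 75th percentile was subtracted, so a difference of 1 is a doubling. Levels of different genes are read by different probes and were not compared. In whole liver, fewer cells of a type and less RNA per cell cannot be told apart.

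The RefSeq promoter table (GRCm38.p6) matched 6 of the 10 genes, the 4 below with Cyp27a1 and Akr1d1. Promoter sequence is shown for Cyp8b1 and Hsd3b7, the enzymes lower in both knockouts on fenofibrate, and for the receptor Nr1h4 and the corepressor Nr0b2. Each stretch is the 250 bases before the RefSeq start, written 5′ to 3′ on the strand of the gene, and capitals mark the matches described next.
Cyp8b1, chr9:121916306-121916555, minus strand: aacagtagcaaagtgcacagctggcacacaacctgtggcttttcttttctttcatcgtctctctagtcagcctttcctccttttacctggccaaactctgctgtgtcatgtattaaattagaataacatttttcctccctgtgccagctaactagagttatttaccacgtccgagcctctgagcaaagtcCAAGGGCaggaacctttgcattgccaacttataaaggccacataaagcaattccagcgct
Hsd3b7, chr7:127800359-127800608, plus strand: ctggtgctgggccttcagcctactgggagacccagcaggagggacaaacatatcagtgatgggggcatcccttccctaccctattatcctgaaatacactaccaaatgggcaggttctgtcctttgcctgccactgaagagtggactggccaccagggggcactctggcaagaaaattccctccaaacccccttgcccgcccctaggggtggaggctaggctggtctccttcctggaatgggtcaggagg
Nr1h4, chr10:89506659-89506908, minus strand: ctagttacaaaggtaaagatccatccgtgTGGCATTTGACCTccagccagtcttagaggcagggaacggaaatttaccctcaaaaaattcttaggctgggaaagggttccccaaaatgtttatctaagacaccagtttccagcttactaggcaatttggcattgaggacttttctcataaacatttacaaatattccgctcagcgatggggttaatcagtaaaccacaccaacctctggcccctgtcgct
Nr0b2, chr4:133553126-133553375, plus strand: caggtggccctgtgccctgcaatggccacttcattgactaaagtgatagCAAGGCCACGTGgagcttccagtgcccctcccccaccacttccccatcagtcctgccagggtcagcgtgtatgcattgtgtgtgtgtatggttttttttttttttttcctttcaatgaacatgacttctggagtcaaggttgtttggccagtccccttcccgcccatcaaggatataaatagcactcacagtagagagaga

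Each of 4 motifs was searched on both strands. A direct repeat of the nuclear receptor half-site with a spacer of 1 base, AGGTCANAGGTCA with at most 2 mismatches in its 12 fixed letters, occurs in 3.24% of 32851 RefSeq promoters of the same length. It matched the Nr1h4 promoter from 221 to 209 bases before the start, on the strand opposite the gene. The extended half-site CAAGGNC, required exactly, occurs in 15.0% of promoters, and matched Cyp8b1 from 60 to 54 bases and Nr0b2 from 201 to 195 bases before the start. The form of this motif was chosen after the promoters of these genes had been read, so its matches support nothing. The E-box CACGTG, in 6.02% of promoters, matched Nr0b2 from 195 to 190 bases before the start and shares 1 base with the extended half-site there. An inverted repeat, AGGTCANTGACCT with at most 2 mismatches, is in 0.959% of promoters and matched none of the 6, and the Hsd3b7 promoter held no match to any of the 4 motifs. These matches describe letters, not bound sites.

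The targeted gene followed the labels. Ppara read 7.02 ± 0.20 (SD, n = 4) in WT vehicle and 5.34 ± 0.27 (n = 3) in KO vehicle livers, and 7.03 ± 0.23 (n = 4) in LWT against 6.11 ± 0.09 (n = 4) in LKO. The adjusted p was 8.39e-09 for KO against WT and 0.000153 for LKO against LWT (limma, Benjamini-Hochberg over all genes). It is not known whether the Ppara probe lies in the deleted part. Between 50.6% and 63.1% of probes were well above background on an array. Replicate arrays correlated at 0.979 to 0.994 over the probes that passed the background filter. Of the 3 KO vehicle livers, replicate 2 had a summed linear signal of 10 Kupffer cell and macrophage markers of 514, relative to the 75th percentile, against 110 to 161 in WT vehicle. The p-values below are limma's, adjusted over all 15906 genes, and a gene passed where the adjusted p was under 0.05.

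**Figure D1:**
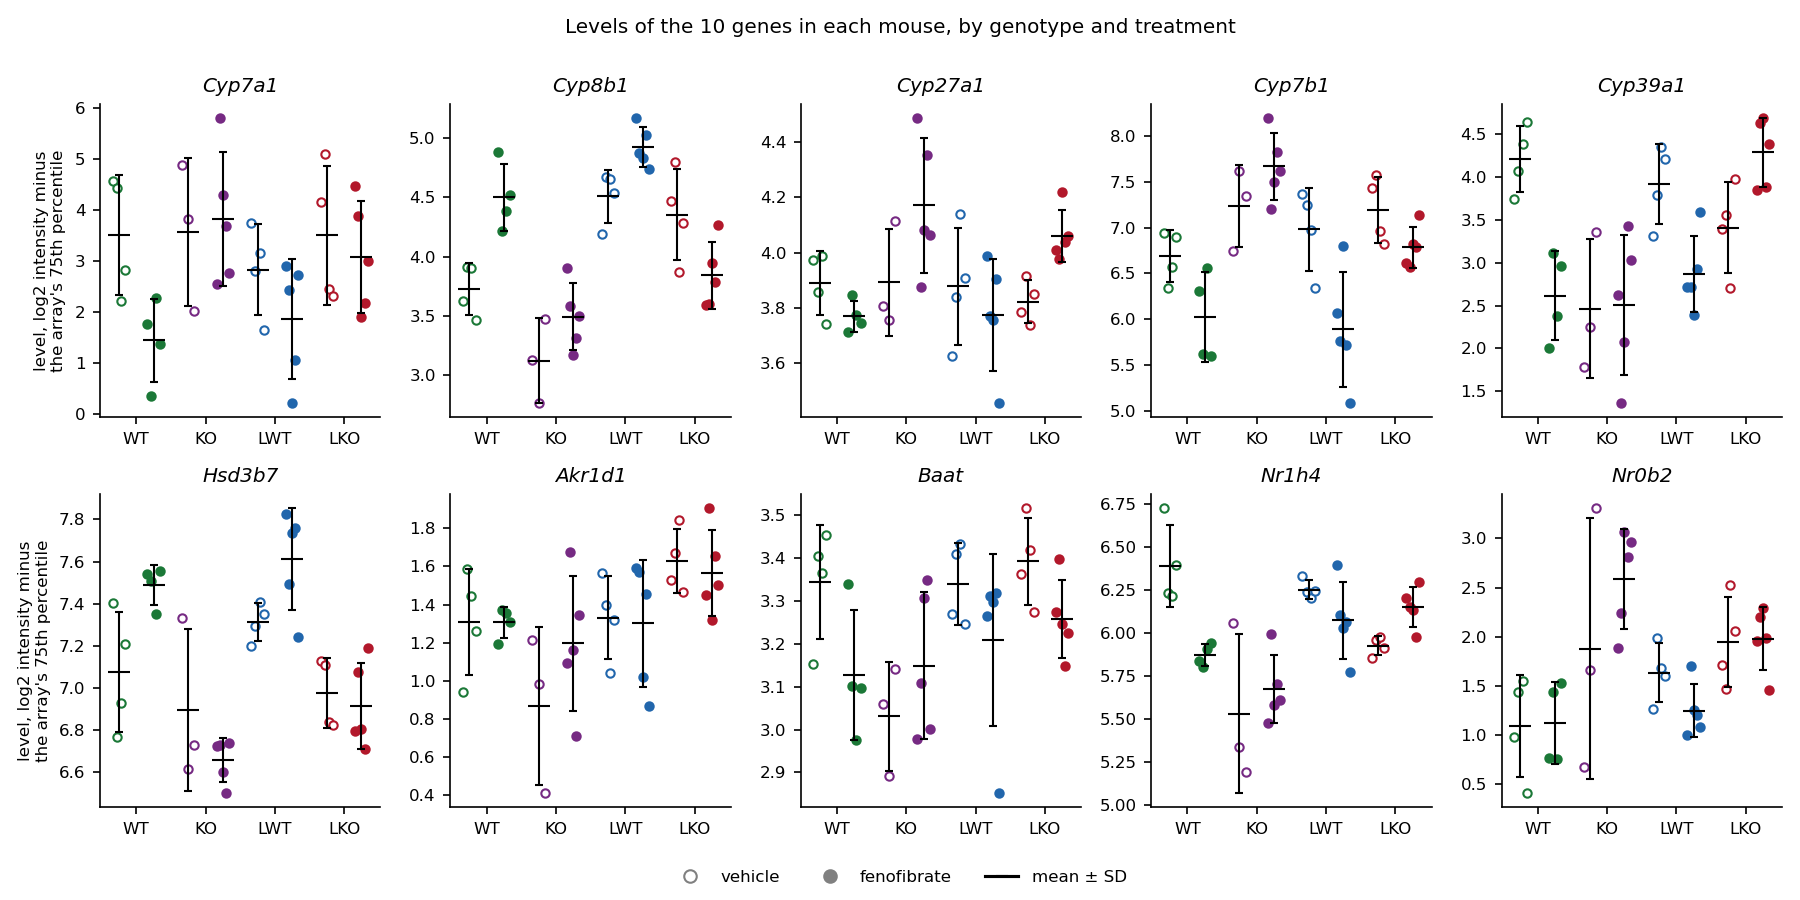
Level of each gene (log2 signal relative to the array's 75th percentile) in each of the 34 mice, by line and treatment, 1 panel a gene. Open points are vehicle mice, filled points fenofibrate mice, and bars the mean ± SD. Cyp7a1 scatters widely in every group, with a pooled within-group SD of 1.16, while the fenofibrate groups of Cyp8b1 separate by genotype.

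Cyp7a1, the rate-limiting enzyme of the classical route, varied widely between mice of 1 group. In WT livers it read 4.56, 4.43, 2.23 and 2.82 with vehicle and 1.77, 0.36, 2.28 and 1.36 with fenofibrate. In KO livers the vehicle levels were 4.88, 3.82 and 2.02, and the fenofibrate levels 2.55, 5.80, 4.29, 3.70 and 2.77. The fenofibrate groups of WT and KO did not overlap, the highest WT mouse lying under the lowest KO mouse, whereas the WT groups met at a vehicle mouse of 2.23. LWT mice read 3.74, 2.80, 3.15 and 1.64 with vehicle and 2.90, 2.44, 0.22, 1.07 and 2.72 with fenofibrate. LKO mice read 4.16, 5.10, 2.45 and 2.31 with vehicle and 4.47, 3.88, 1.90, 2.19 and 2.99 with fenofibrate. These LWT and LKO ranges overlap throughout. On fenofibrate Cyp7a1 was 5.19-fold higher in KO than in WT (log2 2.38 ± 0.75 SE, adjusted p = 0.0108). Its change of -2.07 ± 0.79 with fenofibrate in WT missed the threshold (adjusted p = 0.0600). That change passed without WT vehicle replicate 3 (adjusted p = 0.0355), without KO fenofibrate replicate 2 (adjusted p = 0.0462), with only the compared groups fitted (adjusted p = 0.0402) and with array weights (adjusted p = 0.0311). The values were -0.97 ± 0.75 in LWT (adjusted p = 0.418), -0.42 in LKO (95% interval -1.95 to 1.11) and 0.25 in KO (95% interval -1.41 to 1.91).

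Cyp8b1, the sterol 12-alpha-hydroxylase that makes cholic acid, had the lowest p of the 10 genes for any difference among the 8 groups (adjusted p = 1.48e-08). WT mice read 3.62, 3.91, 3.91 and 3.47 with vehicle and 4.88, 4.22, 4.38 and 4.52 with fenofibrate. KO mice read 3.13, 2.77 and 3.48 with vehicle and 3.91, 3.59, 3.17, 3.31 and 3.50 with fenofibrate. In WT the treated mice were all higher than the vehicle mice, and on fenofibrate every KO mouse lay below every WT mouse. LWT mice read 4.19, 4.67, 4.65 and 4.53 with vehicle and 5.16, 4.87, 4.83, 5.02 and 4.74 with fenofibrate. LKO mice read 4.46, 4.79, 3.87 and 4.28 with vehicle and 3.59, 3.60, 3.95, 3.79 and 4.27 with fenofibrate. Treated LWT mice were all above their vehicle group, and treated LKO mice all below treated LWT mice. Cyp8b1 rose 1.71-fold with fenofibrate in WT (log2 0.77 ± 0.19, adjusted p = 0.00357). In LWT the change was 0.42 ± 0.18 (adjusted p = 0.112), and in LKO it was -0.51 ± 0.18 (adjusted p = 0.695). The response differed between LWT and LKO by 0.93 ± 0.25 (adjusted p = 0.0230), a call lost without LWT vehicle replicate 1 (adjusted p = 0.0592), LKO vehicle replicate 1 (0.0517) or LKO vehicle replicate 2 (0.0732) and with the authors' value table (0.0756). On fenofibrate it was 2.12-fold lower in LKO than in LWT (adjusted p = 7.63e-06) and 2.01-fold lower in KO than in WT (adjusted p = 3.95e-05).

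With vehicle, Cyp8b1 also differed between lines that both carry Ppara. It was lower in WT than in LWT by 0.78 on the log2 scale (fitted -0.78 ± 0.19, adjusted p = 0.0368), with every WT mouse below every LWT mouse. This call was lost without WT vehicle replicate 1, 2 or 4 or LWT vehicle replicate 2, 3 or 4 (adjusted p up to 0.141). It was also lost with the authors' value table (adjusted p = 0.204), no filter on dim probes (0.0684) or replicate number as a block (0.0510). Fitting only the compared groups (0.0771) or leaving out slide 1 (0.0973) lost it too. In KO vehicle livers Cyp8b1 was lower than in WT by -0.60 ± 0.20 (adjusted p = 0.0259), with overlap of the groups. The value was -0.42 (adjusted p = 0.165) without KO vehicle replicate 2, whose macrophage markers stand apart. It also missed the threshold without KO vehicle replicate 1 (0.0508), WT vehicle replicate 2 (0.0692) or WT vehicle replicate 3 (0.0717), and with slide as a block (0.0549). Further misses came with the authors' value table (0.172), only the compared groups fitted (0.0832) and array weights (0.0755).

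Hsd3b7, the 3-beta-hydroxysteroid dehydrogenase of the ring steps, was highest in the treated livers of the lines that carry Ppara. WT mice read 7.40, 6.77, 6.93 and 7.21 with vehicle and 7.54, 7.51, 7.35 and 7.55 with fenofibrate. KO mice read 7.33, 6.62 and 6.73 with vehicle and 6.72, 6.73, 6.60, 6.50 and 6.74 with fenofibrate. The 5 treated KO mice lay within a narrow band below all treated WT mice. LWT mice read 7.20, 7.29, 7.41 and 7.35 with vehicle and 7.83, 7.49, 7.74, 7.76 and 7.24 with fenofibrate. LKO mice read 7.13, 7.11, 6.84 and 6.82 with vehicle and 6.79, 7.07, 6.80, 6.71 and 7.19 with fenofibrate. Under either treatment every LKO mouse lay below every LWT mouse. On fenofibrate the difference was -0.83 ± 0.14 for KO against WT (adjusted p = 1.41e-05) and -0.70 ± 0.13 for LKO against LWT (adjusted p = 8.41e-05). With vehicle the value for LKO against LWT was -0.34 ± 0.15 (adjusted p = 0.210), and it passed with array weights (0.0434). Fenofibrate raised Hsd3b7 1.33-fold in WT (log2 0.41 ± 0.15, adjusted p = 0.0410), with overlap at the vehicle mouse of 7.40. Leaving out WT vehicle replicate 2 or 3 or WT fenofibrate replicate 1, 2 or 4 lost that call, with adjusted p up to 0.169. It was also lost with no filter on dim probes (0.0675) and with only the compared groups fitted (0.0681). The value in LWT was 0.30 ± 0.14 (adjusted p = 0.142), and passed without LWT fenofibrate replicate 5 (0.39, adjusted p = 0.0489).

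Akr1d1, the 5-beta-reductase that follows Hsd3b7, passed the test in no contrast between groups. Over the 34 mice it ran from 0.41 to 1.91, with group means from 0.87 ± 0.41 (n = 3) in KO vehicle to 1.63 ± 0.17 (n = 4) in LKO vehicle. Its change with fenofibrate in WT was 0.00 on the log2 scale (adjusted p = 0.996). KO against WT with vehicle gave -0.44 ± 0.20 (adjusted p = 0.106). This became -0.61 (adjusted p = 0.0387) without KO vehicle replicate 1, and without WT vehicle replicate 1 it became -0.56 (adjusted p = 0.0459).

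Cyp39a1, an oxysterol 7-alpha-hydroxylase, fell with fenofibrate in both lines that carry Ppara. WT mice read 3.75, 4.07, 4.39 and 4.64 with vehicle and 2.00, 3.12, 2.38 and 2.96 with fenofibrate. LWT mice read 3.31, 3.79, 4.35 and 4.21 with vehicle and 2.72, 2.72, 2.39, 2.92 and 3.59 with fenofibrate. The WT groups did not overlap, and the LWT groups overlapped at the treated mouse of 3.59. LKO mice read 3.39, 3.55, 2.71 and 3.98 with vehicle and 3.85, 4.63, 4.69, 3.89 and 4.39 with fenofibrate. KO mice read 1.78, 2.25 and 3.36 with vehicle and 2.62, 1.36, 2.07, 3.43 and 3.03 with fenofibrate. Treated LKO mice were the highest group by mean (4.29), next to WT vehicle (4.21). Both KO groups were at the low end (2.50 treated and 2.46 vehicle), next to treated WT (2.61). These neighbouring means differed by less than the larger SD of each pair. The fall was 3.02-fold in WT (log2 -1.60 ± 0.38, adjusted p = 0.00269). In LWT the change was -1.05 ± 0.36 (adjusted p = 0.0418), a call lost without LWT fenofibrate replicate 1, 2, 3 or 4 or LWT vehicle replicate 2, 3 or 4 (adjusted p up to 0.132) and with slide as a block (adjusted p = 0.117). This LWT call was also lost with no filter on dim probes (0.0681). The responses of LWT and LKO differed by -1.93 ± 0.51 (adjusted p = 0.0177). This difference includes a rise in LKO, whose mean was 3.41 with vehicle and 4.29 with fenofibrate. That rise was not called. On fenofibrate Cyp39a1 was 2.68-fold higher in LKO than in LWT (adjusted p = 0.00137). With vehicle it was 3.36-fold lower in KO than in WT (log2 -1.75 ± 0.41, adjusted p = 0.00172), and without KO vehicle replicate 2 the value was -1.64 (adjusted p = 0.0103). On fenofibrate KO against WT gave -0.11 ± 0.36 (adjusted p = 0.835).

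Cyp7b1, the other oxysterol 7-alpha-hydroxylase, was lowest in the treated livers of the lines that carry Ppara. WT mice read 6.94, 6.34, 6.57 and 6.90 with vehicle and 6.31, 5.62, 6.57 and 5.60 with fenofibrate. LWT mice read 7.36, 7.24, 6.97 and 6.34 with vehicle and 6.07, 5.77, 6.80, 5.72 and 5.08 with fenofibrate. Vehicle and treated mice overlapped in both lines. KO mice read 6.75, 7.62 and 7.34 with vehicle and 8.19, 7.21, 7.50, 7.82 and 7.62 with fenofibrate. LKO mice read 7.43, 7.57, 6.96 and 6.82 with vehicle and 6.61, 6.57, 6.82, 6.79 and 7.13 with fenofibrate. Every treated KO mouse lay above every treated WT mouse. Fenofibrate lowered Cyp7b1 2.13-fold in LWT (log2 -1.09 ± 0.27, adjusted p = 0.00531). The WT change was -0.67 ± 0.29 (adjusted p = 0.103). On fenofibrate Cyp7b1 was 3.14-fold higher in KO than in WT (adjusted p = 1.43e-05) and higher by 0.89 ± 0.26 in LKO than in LWT (adjusted p = 0.00708).

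Cyp27a1, the mitochondrial sterol 27-hydroxylase that opens the alternative route, held a narrow range, from 3.45 to 4.49 over the 34 mice. Its treated KO mice read 4.49, 3.87, 4.08, 4.35 and 4.06, and its treated WT mice 3.71, 3.85, 3.77 and 3.74, with no overlap. Treated LKO mice read 4.01, 3.98, 4.22, 4.04 and 4.06, and treated LWT mice 3.99, 3.77, 3.76, 3.90 and 3.45, which overlap. On fenofibrate Cyp27a1 was higher in KO than in WT by 0.40 ± 0.11 (adjusted p = 0.00446) and in LKO than in LWT by 0.29 ± 0.11 (adjusted p = 0.0346). The latter call was lost without LKO fenofibrate replicate 3 or 5 or LWT fenofibrate replicate 2, 3 or 5, with adjusted p up to 0.136, and with no filter on dim probes (0.0581). Neither line that carries Ppara gave a call with the drug, the WT change being -0.12 (adjusted p = 0.522).

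Baat, which conjugates bile acids, had the narrowest range of the 10 genes. Its group means ran from 3.03 ± 0.13 (n = 3) in KO vehicle to 3.39 ± 0.10 (n = 4) in LKO vehicle. KO vehicle mice read 3.06, 2.89 and 3.14, and WT vehicle mice 3.15, 3.40, 3.36 and 3.45, with no overlap. The difference was -0.31 ± 0.11 (adjusted p = 0.0338). It missed the threshold without KO vehicle replicate 1 (0.0515), KO vehicle replicate 2 (-0.24, adjusted p = 0.153), WT vehicle replicate 2 (0.0752), WT vehicle replicate 3 (0.0655) or WT vehicle replicate 4 (0.0897), and under 7 of the other settings.

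Nr1h4, the bile acid receptor, had its highest group mean in WT vehicle livers (6.39 ± 0.24, n = 4). The mean in LWT vehicle livers was close (6.25 ± 0.05, n = 4). WT mice read 6.72, 6.23, 6.21 and 6.39 with vehicle and 5.84, 5.81, 5.91 and 5.94 with fenofibrate. KO mice read 6.06, 5.34 and 5.20 with vehicle and 5.48, 6.00, 5.58, 5.70 and 5.61 with fenofibrate. All treated WT mice and all KO vehicle mice lay below the WT vehicle mice. LWT mice read 6.33, 6.24, 6.20 and 6.24 with vehicle and 6.40, 6.10, 6.03, 6.07 and 5.77 with fenofibrate. LKO mice read 5.85, 5.96, 5.98 and 5.92 with vehicle and 6.20, 6.15, 6.13, 5.98 and 6.30 with fenofibrate. With vehicle every LKO mouse lay below every LWT mouse, by a mean of -0.33 ± 0.14 that missed the threshold (adjusted p = 0.208). It passed with only the compared groups fitted (0.0270), with array weights (0.0443) and without the 3 arrays of slide 1 (0.0375). Fenofibrate lowered Nr1h4 by -0.52 ± 0.14 in WT (adjusted p = 0.00773), and KO vehicle was lower than WT vehicle by -0.86 ± 0.15 (adjusted p = 7.71e-05). The latter was -0.76 (adjusted p = 0.00126) without KO vehicle replicate 2. In LWT the change with drug was -0.18 (adjusted p = 0.397), and the responses of WT and LWT were not shown to differ in any of the 10 genes.

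Nr0b2, the corepressor that Nr1h4 induces, was highest in treated KO livers. KO mice read 0.67, 1.66 and 3.31 with vehicle and 1.88, 2.24, 3.06, 2.81 and 2.96 with fenofibrate. WT mice read 0.98, 1.44, 1.55 and 0.41 with vehicle and 0.77, 1.43, 0.75 and 1.53 with fenofibrate. The 3 KO vehicle mice spanned nearly the whole range of the gene, while treated KO and treated WT mice did not overlap. LKO mice read 1.71, 1.47, 2.53 and 2.06 with vehicle and 1.96, 2.20, 2.29, 1.99 and 1.46 with fenofibrate. LWT mice read 1.26, 1.99, 1.68 and 1.60 with vehicle and 1.00, 1.70, 1.26, 1.20 and 1.08 with fenofibrate. The LKO and LWT ranges overlap with either treatment. On fenofibrate Nr0b2 was 2.77-fold higher in KO than in WT (log2 1.47 ± 0.35, adjusted p = 0.000977). LKO against LWT gave 0.73 ± 0.33 (adjusted p = 0.0805), and passed without KO vehicle replicate 1 (0.0394) or KO vehicle replicate 3 (0.0254), which are in neither group but enter the pooled spread. It also passed with the authors' value table (0.0394), with only the compared groups fitted (0.00556) and with array weights (0.0323). With vehicle KO against WT gave 0.79 ± 0.39 (adjusted p = 0.133). Without KO vehicle replicate 1 that value was 1.39 (adjusted p = 0.00653). Without KO vehicle replicate 3 the change with fenofibrate in KO moved from 0.71 ± 0.38 (adjusted p = 0.468) to 1.42 (adjusted p = 0.0466). KO against WT with vehicle and fenofibrate in KO thus each moved with a single KO vehicle mouse.

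**Figure D2:**
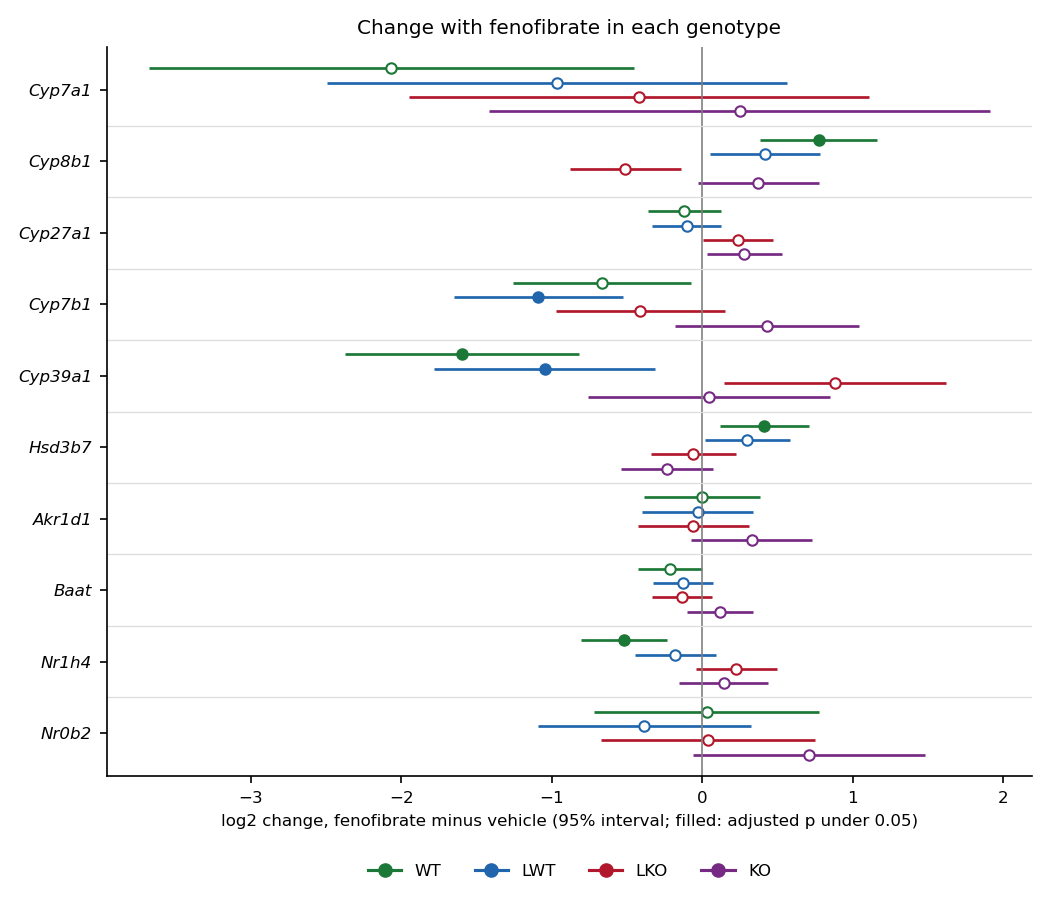
Change of each gene with fenofibrate (log2, fenofibrate minus vehicle) in the 4 lines, with 95% intervals; filled points have an adjusted p under 0.05. Filled points occur in WT and LWT, led by Cyp39a1 at -1.60 in WT and Cyp7b1 at -1.09 in LWT, and none in LKO or KO.

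Counted over the drug comparisons, fenofibrate raised Cyp8b1 and Hsd3b7 and lowered Cyp39a1 and Nr1h4 in WT, that is 2 of 10 genes higher and 2 lower, where 10.1% of all genes rose and 11.3% fell. In LWT it lowered Cyp39a1 and Cyp7b1, that is 0 of 10 higher and 2 lower, against 10.1% and 7.83% of all genes. In limma's fit 7 of the 10 had an unadjusted p under 0.05 in WT and 4 in LWT, against 5161 and 4744 of all 15906 genes. The median change of the 10 was -0.17 in WT and -0.15 in LWT, against 0.00 for all genes in each. In LKO 0 of 10 passed in limma's test, where 0% of all genes did. There 3 members had an unadjusted p under 0.05, against 920 of all 15906 genes. In KO 0 of 10 passed in limma's test, where 0.0126% of all genes did. There 1 member had an unadjusted p under 0.05, against 1876 of all 15906 genes.

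Tests of the difference in response bore on 4 genes. For LWT minus LKO, Cyp8b1 was more positive and Cyp39a1 more negative, so 1 of 10 genes passed in each direction, where 3.79% and 2.97% of all genes did. For WT minus KO, Hsd3b7 was more positive (0.65 ± 0.21, adjusted p = 0.0420) and Cyp39a1 (-1.64 ± 0.55, adjusted p = 0.0498) and Nr1h4 (-0.66 ± 0.20, adjusted p = 0.0302) more negative. That is 1 and 2 of 10, where 5.65% and 5.39% of all genes passed. The Cyp39a1 call was lost in 24 of the 34 fits that left out a mouse, the Hsd3b7 call in 8 and the Nr1h4 call in 6, with adjusted p up to 0.131, 0.154 and 0.122. For Hsd3b7 these were KO vehicle replicate 1, KO fenofibrate replicates 3 and 4, WT vehicle replicates 2 and 3 and WT fenofibrate replicates 1, 2 and 4. For Nr1h4 they were WT vehicle replicate 1, KO vehicle replicates 2 and 3, KO fenofibrate replicate 2 and WT fenofibrate replicates 1 and 2. The Cyp39a1 value ran from -1.30 without KO vehicle replicate 1 to -1.69 without WT vehicle replicate 2 among the fits that lost it. Of the 11 other settings, 7 lost the Cyp39a1 call, 4 the Hsd3b7 call and 2 the Nr1h4 call. The Cyp7b1 difference of -1.10 ± 0.42 (adjusted p = 0.0881) passed without WT fenofibrate replicate 3 (-1.28, adjusted p = 0.0498), and that of Nr0b2 without KO vehicle replicate 3 (-1.39, adjusted p = 0.0426). For WT minus LWT, 0 of 10 passed in limma's test, where 0% of all genes passed. There 0 members had an unadjusted p under 0.05, against 679 of all 15906 genes.

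**Figure D3:**
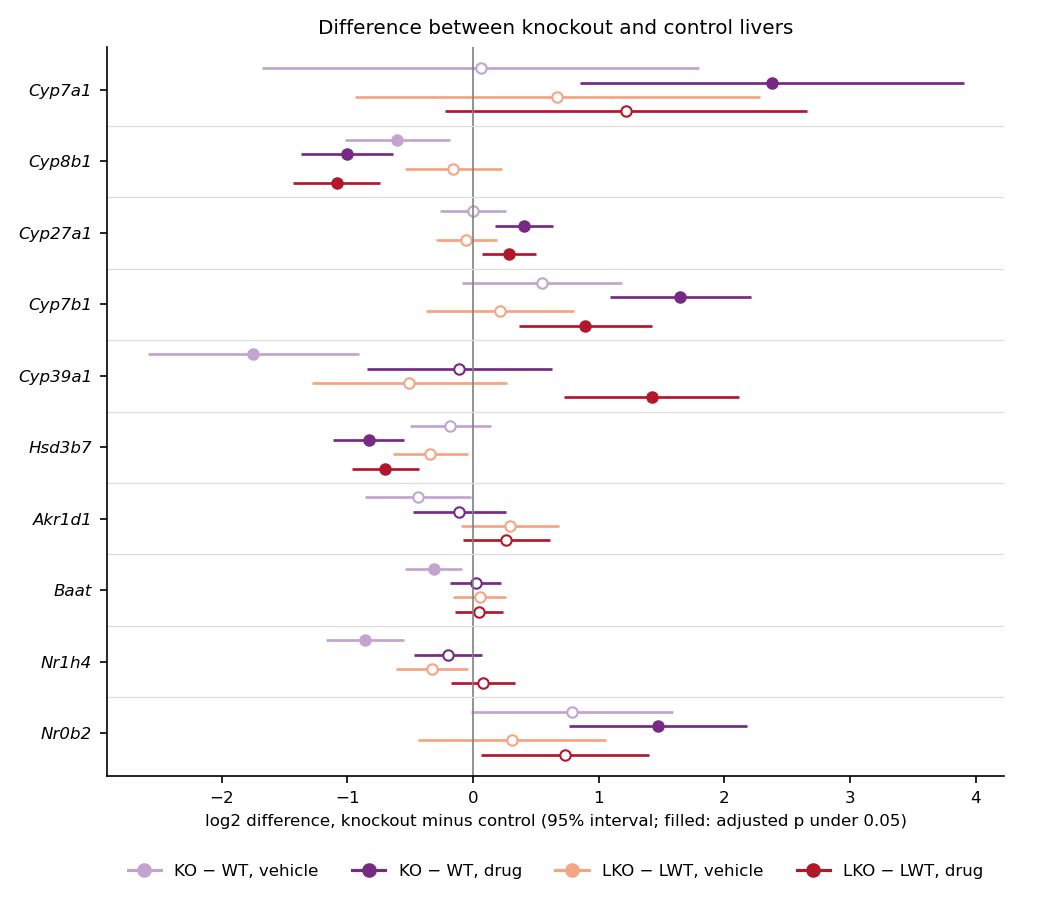
Difference of each gene between lines (log2, knockout minus control) with vehicle and with fenofibrate, with 95% intervals; filled points have an adjusted p under 0.05. On fenofibrate Cyp8b1 and Hsd3b7 lie below 0 and Cyp7b1 and Cyp27a1 above 0 in both knockouts, while Cyp39a1 is at 1.42 in LKO and -0.11 in KO.

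With vehicle the 2 knockouts gave different counts. LKO against LWT gave 0 of 10 genes in limma's test, where 6.14% of all genes passed. Hsd3b7 and Nr1h4 were the 2 members at an unadjusted p under 0.05, against 2671 of all 15906 genes. KO against WT gave 0 higher and 4 lower (Nr1h4, Cyp39a1, Cyp8b1 and Baat), where 14% and 16.1% of all genes were called. Without KO vehicle replicate 2 the 4 became 2, Nr1h4 and Cyp39a1. The effect of KO minus that of LKO passed for 0 of 10 in limma's test, where 8.32% of all genes passed. This difference of effects had an unadjusted p under 0.05 in 4 members, against 3548 of all 15906 genes. Without KO vehicle replicate 1 it passed for Nr1h4 (-0.80, adjusted p = 0.00319) and Akr1d1 (-0.91, adjusted p = 0.0388). Beside KO against WT with vehicle, 5 of 10 Kupffer cell and macrophage markers (Adgre1, C1qa, C1qb, Csf1r and Timd4) were higher and 0 lower, with summed signals of 131 to 514 in KO and 110 to 161 in WT. The summed signal of the endothelial markers was 64.2 to 69.7 in KO and 90.9 to 102 in WT, with no overlap; of the 10 markers 2 were higher (Pecam1 and Stab2) and 2 lower (Clec4g and Kdr). Of the lymphocyte and neutrophil list, S100a8 and S100a9 were higher by 3.62 and 3.64 on the log2 scale. The summed signal of 10 markers of that list was 14.7 to 30.0 in KO and 14.0 to 15.8 in WT, with overlap. Of 12 hepatocyte markers 3 were higher, with overlapping sums of 9468 to 10827 in KO and 9274 to 10432 in WT. All genes gave 14% higher and 16.1% lower. The part of these markers in the KO differences was not tested.

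On fenofibrate more of the 10 genes differed between knockout and control. LKO against LWT had 3 higher (Cyp39a1, Cyp7b1 and Cyp27a1) and 2 lower (Cyp8b1 and Hsd3b7), where 18.3% of all genes were higher and 18.3% lower. KO against WT had 4 higher (Cyp7a1, Nr0b2, Cyp7b1 and Cyp27a1) and 2 lower (Cyp8b1 and Hsd3b7), against 21.2% and 22% of all genes. Beside KO against WT, 7 of 10 periportal markers were higher and 2 lower, the summed signal being 2940 to 3335 in KO and 1932 to 2129 in WT. Beside LKO against LWT, 6 of 10 were higher and 1 lower, with sums of 2706 to 3122 in LKO and 2224 to 2649 in LWT. Of an intestine list 2 of 6 genes were measured, and both moved: Fabp2, a fatty acid binding protein, was lower by -1.43 in each knockout, and Slc10a2, an apical bile acid carrier, was higher by 1.19 in KO and 1.11 in LKO. The part of these markers was not tested. These comparisons share the treated control mice with the drug comparisons, so they are not independent of them. Between the control lines, WT against LWT gave 1 of 10 with vehicle (Cyp8b1), where 0.918% of all genes passed. On fenofibrate WT against LWT gave 0 of 10 in limma's test, where 0.528% of all genes passed. There 1 member, Cyp8b1 at -0.43 ± 0.18, had an unadjusted p under 0.05, against 1572 of all 15906 genes. The test for any difference among the 8 groups passed for 9 of 10 genes, where 60.7% of all genes passed, and missed for Cyp7a1 (adjusted p = 0.0539). Cyp7a1 passed it in 9 of the 34 fits that left out a mouse (KO fenofibrate replicates 1 and 5, KO vehicle replicate 3, LWT fenofibrate replicate 1, LKO fenofibrate replicates 1 and 3, LKO vehicle replicates 3 and 4 and WT vehicle replicate 3) and under 3 other settings. Akr1d1 and Baat each missed it in 21 of the 34 fits, with adjusted p up to 0.166 and 0.106, and Cyp27a1 without KO fenofibrate replicate 1 or 4. In the order of the 8 group means, 10 of 70 neighbouring pairs differed by more than the larger SD of the pair, 3 of them in Cyp8b1 and none in Cyp7a1, Cyp27a1 or Baat.

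The other genes of the pathway were read from 4 lists. Among the steps that shorten and activate the side chain, fenofibrate raised 6 of 11 measured genes in WT and 4 of 11 in LWT and lowered none, where 10.1% of all genes rose in each line. Acot8, a peroxisomal thioesterase, rose by 1.36 ± 0.11 in WT (adjusted p = 6.53e-10) and 0.99 ± 0.11 in LWT. Abcd3, which carries the bile acid intermediates into peroxisomes, rose by 0.88 ± 0.10 and 0.65 ± 0.09, and Hsd17b4, the peroxisomal bifunctional enzyme, by 0.83 ± 0.10 and 0.63 ± 0.09. Slc27a2, an acyl-CoA synthetase, rose by 0.51 ± 0.09 in WT, and Pex5, the import receptor of peroxisomes, by 0.34 ± 0.09 in LWT. The median over the 11 was 0.49 in WT and 0.34 in LWT, against 0.00 over all genes. With vehicle 4 of 11 were lower in LKO than in LWT, where 6.14% of all genes passed in either direction, Acot8 by -1.49 ± 0.11, Hsd17b4 by -1.44 ± 0.10, Abcd3 by -1.29 ± 0.10 and Slc27a2 by -0.65 ± 0.09. In KO 5 were lower and 2 higher than in WT, where 16.1% and 14% of all genes were, with Abcd3 at -1.39 ± 0.11 and Acot8 at -1.10 ± 0.12 and with Acnat2, an acyltransferase, at 2.21 ± 0.53 and Acox2, the branched-chain acyl-CoA oxidase, at 1.07 ± 0.14.

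**Figure D4:**
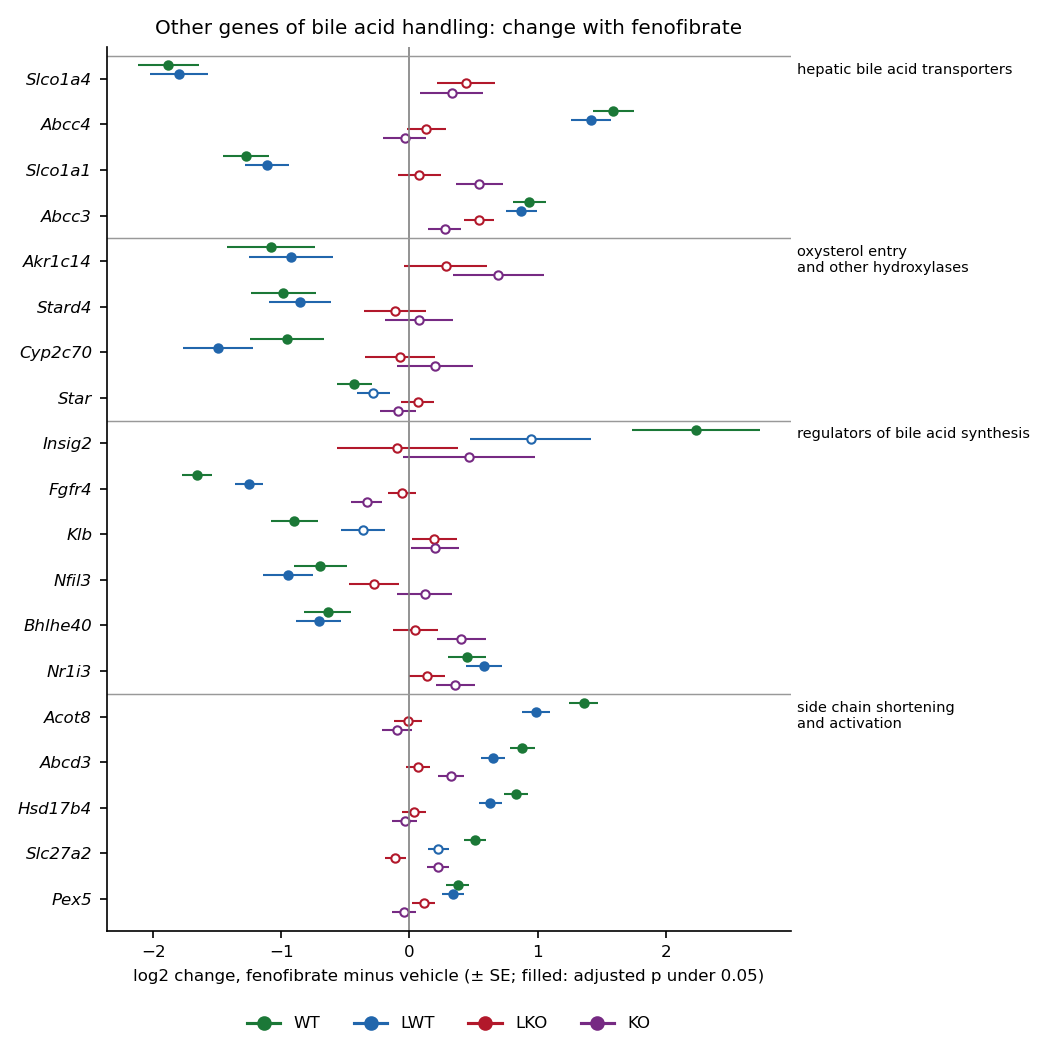
Change with fenofibrate (log2 ± SE) in the 4 lines of the pathway genes with the largest called changes in WT or LWT, at most 4 for each list and line. Acot8, Abcd3 and Hsd17b4 lie above 0 in WT and LWT and Fgfr4 and Slco1a4 below 0; the lists held no called gene in LKO or KO.

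Among enzymes and carriers of sterol entry and other hydroxylation, fenofibrate lowered 4 of 8 measured genes in WT and 3 of 8 in LWT and raised none, where 11.3% and 7.83% of all genes fell. Akr1c14, an aldo-keto reductase of steroids, changed by -1.08 ± 0.34 in WT and -0.93 ± 0.33 in LWT, and Stard4, a sterol carrier, by -0.98 ± 0.26 and -0.85 ± 0.24. Cyp2c70, which makes muricholic acids in mice, changed by -0.96 ± 0.29 in WT (adjusted p = 0.0164) and -1.50 ± 0.27 in LWT (adjusted p = 0.000196). Star, the mitochondrial cholesterol carrier, fell by 0.43 in WT (adjusted p = 0.0217). The median over the 8 was -0.40 in WT and -0.27 in LWT. With vehicle no gene of the list passed in LKO against LWT by limma's test, where 6.14% of all genes passed. In KO 2 of 8 were lower than in WT, where 16.1% of all genes were lower. They were Akr1c14 at -1.85 ± 0.37 and Cyp3a11, a steroid hydroxylase, at -1.56 ± 0.34. Ch25h, cholesterol 25-hydroxylase, was not measured above the filter.

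Of 23 measured regulators, 3 rose and 7 fell with fenofibrate in WT, where 10.1% of all genes rose and 11.3% fell. In LWT 2 rose and 5 fell, against 10.1% and 7.83%. Fgfr4, the hepatic receptor through which intestinal FGF15 represses Cyp7a1, fell by -1.66 ± 0.12 in WT (adjusted p = 1.68e-11) and -1.25 ± 0.11 in LWT (adjusted p = 1.89e-09). Its co-receptor Klb changed by -0.90 ± 0.18 in WT. Insig2, which retains the sterol sensor SCAP, rose by 2.24 ± 0.50 in WT. Nfil3, a transcriptional repressor of the clock output, changed by -0.70 ± 0.21 in WT and -0.95 ± 0.20 in LWT, and in LWT the clock repressor Bhlhe40 changed by -0.71 ± 0.17 and the xenobiotic receptor Nr1i3 (CAR) by 0.58 ± 0.14. With vehicle Nr1d1, the clock repressor REV-ERBα, was lower in LKO (-1.28 ± 0.38) and in KO (-1.88 ± 0.42), each against its control. Fgfr4 was higher in LKO by 0.55 ± 0.12, and in KO Klb was lower (-1.06 ± 0.20), Insig2 higher (1.82 ± 0.54) and Cebpa, a hepatocyte transcription factor, lower (-0.45 ± 0.16).

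Of 13 measured transporters, 3 rose and 4 fell with fenofibrate in WT, and 4 rose and 4 fell in LWT, beside the same shares of all genes. The basolateral exporters Abcc4 and Abcc3 rose by 1.59 ± 0.16 and 0.94 ± 0.13 in WT and by 1.42 ± 0.15 and 0.87 ± 0.12 in LWT. The uptake carriers Slco1a4 and Slco1a1 changed by -1.88 ± 0.24 and -1.28 ± 0.18 in WT and by -1.80 ± 0.23 and -1.11 ± 0.17 in LWT. With vehicle Slco1a4 was higher in LKO than in LWT (1.12 ± 0.24), and the phospholipid transporter Abcb4 (-0.93 ± 0.11) and the sterol transporters Abcg8 (-0.94 ± 0.16) and Abcg5 (-0.71 ± 0.14) were lower. In KO against WT, Abcb4 (-0.90 ± 0.12) and the canalicular exporter Abcc2 (-0.95 ± 0.09) were lower, and Slco1a4 (0.96 ± 0.26) and the basolateral exporter subunit Slc51b (1.87 ± 0.64) were higher. In LKO and KO 0 genes of the 4 lists passed with fenofibrate in limma's test, where 0% and 0.0126% of all genes did. Beside the drug responses, 5 of 10 periportal markers fell in WT and 4 of 10 in LWT with none higher, the summed signal being 1932 to 2129 in treated and 2534 to 2788 in vehicle WT mice. Of 9 pericentral markers, 3 fell in WT and 2 in LWT with none higher. These stand beside 11.3% of all genes lower in WT and 7.83% in LWT. The summed signal of 10 lymphocyte and neutrophil markers was 14.0 to 15.8 in vehicle and 16.5 to 18.5 in treated WT mice, and 14.4 to 15.7 and 16.01 to 24.05 in LWT. Of these markers Nkg7 rose in both lines and Ly6g fell in WT. Of the 2 measured genes of the intestine list, Fabp2 rose by 1.26 in WT and 1.13 in LWT and Slc10a2 fell by 1.18 in WT. The part of all these markers in the responses was not tested.

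The genes most like each member over the 34 mice were found by Pearson correlation of levels among all tested genes, as a description of arrays that share groups and slides. Cyp7b1 was nearest to Cyp2c70 (0.900), Ces3b (0.892) and Ugt2b1 (0.890), and Hsd3b7 to Rad51d (0.913), Cog4 (0.912) and Hsd17b10 (0.910). Cyp7a1 had Mblac2 (0.910) well ahead of Erlin1 (0.769), and Cyp8b1 was nearest to Cmbl (0.852). The nearest genes to Cyp39a1, Nr1h4 and Nr0b2 were Ccdc84 (0.850), Ppp1r16a (0.861) and Gja4 (0.799), while Cyp27a1 reached 0.761 with Dmxl2 and Baat 0.652 with B2m.

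Within groups, the deviation of each mouse from its group mean was correlated between members, over 45 pairs and 34 mice. After adjustment over the 45 pairs 0 passed, and 7 had an unadjusted p under 0.05 (permutation test, 100000 resamples, two-sided). Hsd3b7 and Nr1h4 gave r = 0.69 and rho = 0.51 (permutation p = 0.00201 and 0.0149, adjusted p = 0.0904 and 0.224). The 4 slides with 6 or more mice all gave a positive r for this pair, and without the 2 mice farthest from the median r was 0.55 (adjusted p = 0.202). With slide removed its r was 0.62 and that of Cyp39a1 with Akr1d1 -0.59, and these 2 pairs then passed (adjusted p = 0.0308 for each, permutation test). Cyp7a1 and its repressor Nr0b2 gave r = -0.42 and rho = -0.40 (permutation p = 0.0462 and 0.0505, adjusted p = 0.294 and 0.257), with r = -0.42 without 2 extreme mice and a negative r in 3 of the 4 slides. Cyp7a1 and Nr1h4 gave r = 0.50 and rho = 0.50 (permutation p = 0.0134 and 0.0106, adjusted p = 0.151 and 0.224), and r was 0.45 without 2 extreme mice and positive in 3 of the 4 slides. Nr1h4 and Nr0b2 gave r = -0.50 and rho = -0.34 (permutation p = 0.119 and 0.112, adjusted p = 0.397 and 0.380), and r was -0.35 without 2 extreme mice.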

How the data were processed

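Liver RNA of 34 mice was hybridised to 34 one-colour (Cy3) Agilent arrays, scanned and read, per the file headers, by Agilent Feature Extraction 10.10.1.1 with probes placed on mm9. The deposited scanner files hold spot intensity, already background-subtracted by the scanner software per the file headers. The authors' deposited value table is on a log2 scale with a median of 7.63 on every array, and of its normalization the submitters' processing notes name only limma. The scanner flags for background, saturation and outliers were used as deposited.

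Outlier spots were left missing, and the other spots of a probe were averaged on the linear scale before log2 was taken. Each array's 75th percentile was then subtracted. A probe entered if well above background on every array of a group, and the brightest probe stood for a gene, giving 15906 genes from 55681 probes. One limma model over all 8 groups was fitted (R 4.3.3, limma 3.58.1) with Benjamini-Hochberg adjustment and a threshold of 0.05. Slide was not a term of this model and entered only as an alternative. The groups lay unevenly on 5 slides, so group and slide are partly confounded. WT vehicle mice were on slides 1, 3 and 4 and WT fenofibrate mice on slides 3 and 5. KO and WT mice shared only slide 1 with vehicle and slide 5 on fenofibrate. Accessions and symbols were updated through a RefSeq gene table. On simulated data for fenofibrate in WT (15820 genes, normal noise), 67, 67 and 66 genes were changed by 0.5, 1 and 2 on the log2 scale. Of these 47.8%, 85.1% and 95.5% were recovered, so small changes can be missed with this number of arrays. In the data 1603 genes were called higher and 1800 lower, many more than were changed in the simulation, so these shares need not hold there. Named were all 10 members, Ppara, up to 4 called genes with the largest change of each pathway list in the drug and vehicle knockout comparisons, and the 3 genes most like a member with a call, of which some are given. The members, lists and tests were chosen with earlier results of these data known. The extended half-site was first searched with mistyped letters and then replaced by CAAGGNC after the members' promoters had been read.

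Alternatives were normexp background (offset 50), quantile normalization, the authors' value table, no filter and a stricter one, the mean of a gene's probes, slide or replicate number as a block, only the compared groups, array weights, leaving out slide 1, and leaving out each mouse. Same-numbered samples deviated together, with every correlation over 0.1, in LKO against LWT, KO against WT and WT against LWT with vehicle, and not in the other comparisons. In these 3 comparisons 3 of 4, 1 of 3 and 3 of 4 same-numbered pairs lay on the same slide. Same-slide pairs also occurred in other comparisons, as for fenofibrate in KO (2 of 3 pairs). The labels do not say what else a number shares.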

Additional observations from a re-analysis of the deposited data

Results flagged for a closer look

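Among 70 sets of 4 or 5 mice examined, 1 mouse stood apart by Dixon's ratio: Baat read 2.85 in LWT fenofibrate replicate 5, against 3.27 to 3.32 in the other 4 mice. Chance gives such a mouse in about 1 of 20 sets. The response to fenofibrate differed between LWT and LKO by -1.93 in Cyp39a1 and 0.93 in Cyp8b1 (log2), by the interaction term of the limma fit. It differed between WT and KO by -1.64 in Cyp39a1, 0.65 in Hsd3b7 and -0.66 in Nr1h4 by the same kind of test.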

How the results depend on the processing

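Of 27 calls on single genes in the 14 contrasts, 17 were kept in each of the 34 fits that left out a mouse and under each other setting run, and no value changed sign while called. Counts of members called that moved by over 1.5 times were as follows. With the authors' value table they were 2 for KO against WT vehicle, 0 for WT against LWT vehicle, 1 for LWT minus LKO and 1 for the KO effect minus the LKO effect. With no filter they were 1 for fenofibrate in LWT, 0 for WT against LWT vehicle and 0 for WT minus KO. With slide as a block they were 1 for fenofibrate in LWT and 2 for KO against WT vehicle, and 2 correlation pairs passed. With the replicate block WT against LWT vehicle had 0. Under the block Cyp7a1 passed for fenofibrate in WT (adjusted p = 0.0244) and Nr0b2 for LKO against LWT on fenofibrate (0.0466), Cyp39a1 missed for WT minus KO (0.0648), and no other member call in a contrast between groups changed. Of all called genes in LKO against LWT vehicle, 41.8% were higher with the value table, against 29.9% in the scanner signals, and 58.3% against 47.9% in WT against LWT vehicle. With only the compared groups they were 1 for LKO against LWT vehicle, 2 for KO against WT vehicle, 0 for WT against LWT vehicle and 0 for WT minus KO. Array weights gave 2, 2, 1 and 2 for LKO against LWT vehicle, KO against WT vehicle, WT minus KO and the KO effect minus the LKO effect, and leaving out slide 1 gave 1 for the first, 0 for WT against LWT vehicle, 1 for WT minus KO and 2 for the last. Rises of 1.5 times or less were from 4 to 6 for KO against WT vehicle without slide 1 (Akr1d1 and Nr0b2) and for fenofibrate in WT with array weights (Cyp7a1 and Baat), from 4 to 5 for fenofibrate in WT with the replicate block, from 2 to 3 for fenofibrate in LWT with only the compared groups (Cyp8b1), from 5 to 6 for LKO against LWT on fenofibrate under 5 settings (Nr0b2), and from 9 to 10 for any difference under 3 settings (Cyp7a1). Leaving out 1 mouse at a time gave, for fenofibrate, 3 to 5 (WT), 1 to 3 (LWT), 0 to 0 (LKO) and 0 to 1 (KO). For the knockouts it gave 0 to 0 (LKO) and 2 to 5 (KO) with vehicle and 4 to 6 and 6 to 6 on fenofibrate. It gave 0 to 1 and 0 to 0 for WT against LWT with vehicle and fenofibrate, 1 to 2 for LWT minus LKO, 0 to 3 for WT minus KO, 0 to 0 for WT minus LWT, 0 to 2 for the KO effect minus the LKO effect and 7 to 9 for any difference. Differences within a slide, which use the same mice as the fit, had its sign in 35 of 35 cases for the 22 calls between 2 groups and in 132 of 175 for the 78 differences that were not called. Where the 2 groups of a call do not overlap, the sign within a slide was fixed in advance. These counts therefore give the calls no separate support. Groups of 3 to 5 mice and the number of arrays limit the precision.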
